A study of Mus musculus with 3072 samples.

Results

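The genes described here are 7 genes of thrombin and ADP signalling: the thrombin receptor genes F2r and F2rl2, the ADP receptor genes P2ry1 and P2ry12, the G protein alpha subunit genes Gnaq and Gna13, and Rgs18. They were chosen by symbol as genes of this pathway, with earlier results of these data in view, and all 7 stood on 1 row each among the 55291 gene symbols of the count matrix.

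F2r encodes PAR1 and F2rl2 encodes PAR3, receptors that thrombin acts on by cleaving their extracellular end. In mouse platelets PAR3 is known as a cofactor that helps thrombin cleave PAR4, the product of F2rl3, while PAR1 is the main thrombin receptor of human platelets. P2ry1 encodes the ADP receptor P2Y1, which couples to Gq and raises calcium, and P2ry12 encodes P2Y12, which couples to Gi and is the target of clopidogrel. Gnaq encodes the Gq alpha subunit, which activates phospholipase C beta, and Gna13 encodes the G13 alpha subunit, which activates RhoA through guanine nucleotide exchange factors. RGS18 is a GTPase-activating protein of the blood lineages that shortens Gq and Gi signals and restrains platelet activation.

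Single bone marrow cells of 8 wild-type C57BL/6 mice were profiled by Smart-seq2, a full-length method without molecular identifiers, so that counts are amplified reads. All mice had received transplanted barcoded stem cells. The 4 mice labelled control were sampled 32 weeks after transplantation and the 4 labelled platelet_depleted at 28 weeks, under separate experiment codes, so treatment, week and experiment cannot be told apart. The sources used here do not name the depleting agent or the stem cell donors. A code in the sample titles was read as the mouse, and it is the replicate throughout. From each mouse, 3 sorted populations were taken, given in the labels by the short names HSC, CFU and MkP only.

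Of 3069 wells with counts, 2668 were kept, with 24105 to 6910788 counts each and a median of 1718305. The sums per mouse ranged from 68792249 to 163711561 counts for HSC, from 142259804 to 238230656 for CFU and from 215705409 to 327869432 for MkP. Levels are given as CPM, counts scaled to library size after TMM correction for composition. The summed level of 8 megakaryocyte genes, among them Pf4, Itga2b and Vwf, was 3999.9 to 6629.7 CPM in MkP, 1634 to 2157 CPM in HSC and 22.4 to 45.5 CPM in CFU. That of 8 erythroid genes, among them Klf1, was 6612 to 9614 CPM in CFU. In HSC it was 30.5 to 247 CPM and in MkP 234 to 654 CPM. That of 8 genes of granulocyte and monocyte progenitors ran from 2.43 to 1313 CPM in CFU. Of the 8 megakaryocyte genes, edgeR called 4 higher and 1 lower in MkP than in HSC and did not call 3. Of the 8 erythroid genes it called 5 higher and 0 lower in MkP. Of 5 tested mast cell and basophil genes it called 5 higher and 0 lower. Of all genes tested, 16.8% were called higher and 13.1% lower. The authors' table calls 93 wells of control mouse 2 MkP that the titles call CFU; they were used as CFU, and the edgeR comparisons were also computed without that mouse. Median genes per cell were lower in depleted than in control mice, at 5595 against 6514.5 in HSC, 7908 against 8397.5 in CFU and 5915.5 against 6921.5 in MkP.

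The promoters of the 3 receptor genes that were higher in MkP than in HSC are shown because these genes shared that difference, while P2ry1 differed from the other 2 in CFU. Each is the 250 bases before the transcription start, read in the direction of the gene from RefSeq on GRCm38.p6, at chr13:95618467-95618716 on the minus strand for F2r, chr13:95696670-95696919 on the plus strand for F2rl2 and chr3:61002535-61002784 on the plus strand for P2ry1. Capitals mark matches, on either strand, to the GATA motifs AGATAA and TGATAA, the ETS motif AGGAAG and the RUNX motif TGTGGT.
F2r: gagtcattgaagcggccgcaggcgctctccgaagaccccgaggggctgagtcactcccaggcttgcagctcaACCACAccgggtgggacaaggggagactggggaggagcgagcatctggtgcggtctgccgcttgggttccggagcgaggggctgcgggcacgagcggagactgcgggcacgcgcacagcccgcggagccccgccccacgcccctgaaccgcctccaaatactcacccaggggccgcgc
F2rl2: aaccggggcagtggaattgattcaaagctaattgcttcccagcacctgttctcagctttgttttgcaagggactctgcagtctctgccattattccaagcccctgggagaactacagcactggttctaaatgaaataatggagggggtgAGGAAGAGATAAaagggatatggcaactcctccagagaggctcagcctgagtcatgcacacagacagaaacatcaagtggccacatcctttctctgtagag
P2ry1: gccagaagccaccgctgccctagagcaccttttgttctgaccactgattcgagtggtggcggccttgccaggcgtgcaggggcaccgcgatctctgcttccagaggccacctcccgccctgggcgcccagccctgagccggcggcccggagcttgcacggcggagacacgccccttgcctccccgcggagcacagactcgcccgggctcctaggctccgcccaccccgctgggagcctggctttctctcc

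The F2rl2 window held AGGAAG followed directly by AGATAA, which begin 101 and 95 bases before the start and do not overlap. The F2r window held 1 RUNX match, 178 bases before the start, and the P2ry1 window held none of the motifs. In windows of the same length before all 32851 starts of the table, a GATA motif stood in 16.6%, the ETS motif in 29.5% and the RUNX motif in 14.05%. The P2ry12 window held 1 ETS match, and the Gnaq and Gna13 windows held no match. A match is a description of letters and not a binding site.

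In MkP compared with HSC, F2r, F2rl2, P2ry1 and Rgs18 rose, while P2ry12, Gnaq and Gna13 did not pass the test. With the mouse as a block, Gna13 did pass it. In CFU, F2r, F2rl2, P2ry12, Gnaq and Rgs18 were lower than in HSC, P2ry1 was higher, and Gna13 did not pass the test. In sums over cells, fewer cells that express a gene and less RNA per cell cannot be told apart, so the shares of cells with a count are given too.

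**Figure D1:**
Level of each of the 7 genes, as log2(CPM + 1), in HSC, CFU and MkP of 4 control and 4 platelet-depleted mice; a point is a mouse and a line the mean of 4 mice on this scale. F2r, F2rl2, P2ry1 and Rgs18 are highest in MkP, P2ry12 is low throughout, and the Gna13 values of the 3 populations overlap.

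F2r, the PAR1 gene, had the highest level per kilobase of exon of the 4 receptor genes in each population. In MkP it stood at 516, 523, 477 and 678 CPM in the 4 control mice and at 669, 659.9, 693 and 668 CPM in the 4 depleted mice. In HSC the values were 182, 187, 158 and 198 CPM in control and 228, 233, 186 and 143 CPM in depleted mice. CFU held 23.9, 16.9, 32.8 and 22.9 CPM in control and 33.7, 40.2, 30.6 and 25.2 CPM in depleted mice. Every MkP value was above every HSC value, and every HSC value above every CFU value. F2r was 3.20-fold higher in MkP than in HSC (log2 fold change 1.68, SE 0.13, adjusted p = 1.62e-09). This and the p-values below are from the quasi-likelihood test of edgeR, adjusted by Benjamini-Hochberg over all genes tested. Between CFU and HSC the log2 fold change was -2.76 (SE 0.13, adjusted p = 1.79e-14).

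F2rl2, the PAR3 gene, had the largest fold change of the 7 genes between MkP and HSC. MkP held 134, 186, 157 and 175 CPM in control and 173, 189.7, 163 and 168 CPM in depleted mice. HSC held 4.84, 2.40, 5.83 and 25.5 CPM in control and 15.7, 22.2, 18.9 and 4.19 CPM in depleted mice. All MkP values were above all HSC values, and the HSC values were low in 3 control mice and 1 depleted mouse and several-fold higher in the other 4. In CFU, F2rl2 was between 0.071 and 1.01 CPM, resting on 12 to 181 counts per mouse. The gene was 13.3-fold higher in MkP than in HSC (log2 fold change 3.73, SE 0.50, adjusted p = 4.77e-06) and lower in CFU than in HSC (log2 fold change -5.06, SE 0.56, adjusted p = 3.31e-08).

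In the GENCODE M21 annotation, F2rl2 lies inside Iqgap2 on the opposite strand and shares no exon base with it. Iqgap2, a scaffold protein gene, averaged 82.9 ± 22.5 CPM in HSC, 32.7 ± 6.07 CPM in CFU and 106 ± 14.1 CPM in MkP (SD, n = 8 mice). Its log2 fold change in MkP against HSC was 0.38 (SE 0.13, adjusted p = 0.0243), against 3.73 for F2rl2. The sources used here do not give the strand rule of the counting.

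P2ry1, the P2Y1 gene, had another order, with MkP above CFU and CFU above HSC. MkP held 56.1, 58.2, 39.8 and 61.1 CPM in control and 54.9, 75.2, 83.8 and 68.1 CPM in depleted mice. In CFU the values were 27.3, 24.6, 19.95 and 20.8 CPM in control and 26.6, 18.7, 23.9 and 22.9 CPM in depleted mice. HSC held 9.56, 15.4, 13.4 and 14.9 CPM in control and 8.83, 14.6, 4.93 and 10.2 CPM in depleted mice. No value overlapped between neighbouring populations. P2ry1 was 5.43-fold higher in MkP than in HSC (log2 fold change 2.44, SE 0.19, adjusted p = 3.89e-09) and 2.02-fold higher in CFU than in HSC (log2 fold change 1.01, SE 0.19, adjusted p = 5.09e-05). It shares 992 annotated exon bases with the antisense gene Gm37035, whose mean was 6.49 CPM in MkP, 0.83 CPM in CFU and 0.61 CPM in HSC; reads of the 2 genes cannot be told apart without strand.

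P2ry12, the P2Y12 gene, was found in few cells. It stood at 0.66, 0.99, 0.43 and 2.67 CPM in MkP of control mice and at 1.504, 0.66, 0.54 and 1.78 CPM in depleted mice. HSC values ran from 0.00828 to 1.71 CPM and overlapped with MkP (log2 fold change 0.66, SE 0.73, adjusted p = 0.554). All 8 CFU sums together held 2 counts, against 859 in HSC and 2811 in MkP. Relative to total counts, this is a ratio of 677 for HSC to CFU (95% exact binomial interval 187 to 5599.9) and of 949 for MkP to CFU (262 to 7839). These intervals take each read as independent, although counts are amplified reads from few cells. They do not give the spread over cells or mice. CFU were called lower than HSC (adjusted p = 1.91e-07) and than MkP (adjusted p = 1.31e-07). The gene passed the low-count filter of edgeR through HSC and MkP only, so these p-values are no separate support for the difference.

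Without thinning, 50 of 1324 MkP cells had a P2ry12 count, and the share ran from 1.73% to 7.98% over the 8 mice. It was found in 25 of 697 HSC, or 1.14% to 4.94% of the cells of a mouse, and in 2 of 647 CFU, or 0% to 1.27%. The HSC and MkP shares overlapped, and 6 of the 8 mice had no CFU with a count. The 5 MkP cells with the most counts held 43.9% of the gene's counts in MkP, and the 5 such HSC held 70.3%. P2ry12 lies inside Med12l on the opposite strand and shares 9 exon bases with it. Med12l averaged 84.3 CPM in MkP, 63.7 CPM in HSC and 0.30 CPM in CFU, and its part in the P2ry12 counts was not tested.

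Gnaq, the Gq alpha subunit gene, held 49.3, 68.2, 51.2 and 67.8 CPM in MkP of control and 54.6, 46.3, 59.6 and 37.2 CPM in MkP of depleted mice. HSC held 34.5 to 69.3 CPM, a range that overlapped with MkP (log2 fold change 0.15, SE 0.17, adjusted p = 0.566). CFU held 7.71 to 18.9 CPM, below every HSC and MkP value (log2 fold change -1.99, SE 0.17, adjusted p = 5.42e-10, against HSC). The HSC and MkP values of Gnaq could thus not be told apart, and those of CFU were lower.

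Gna13, the G13 alpha subunit gene, averaged 74.1 ± 14.1 CPM in MkP, 61.6 ± 10.6 CPM in CFU and 52.4 ± 22.3 CPM in HSC (SD, n = 8 mice), and all 3 ranges overlapped. Its log2 fold change was 0.50 in MkP against HSC (SE 0.20, adjusted p = 0.069) and 0.23 in CFU against HSC (SE 0.20, adjusted p = 0.342). With the mouse as a block the former was called (0.57, adjusted p = 0.00666), as it was without control mouse 2 (0.58, adjusted p = 0.0397) or depleted mouse 2 (0.60, adjusted p = 0.0442). With each cell thinned to 20000 counts, Gna13 was called in MkP against HSC (0.48, adjusted p = 0.0499). It was also called in CFU against MkP (-0.53, adjusted p = 0.0237, against -0.27, adjusted p = 0.279, without thinning). Gna13 shares 151 annotated exon bases with the antisense gene Gm11696. Gm11696 averaged 8.20 CPM in HSC, 3.86 CPM in MkP and 0.39 CPM in CFU, and its part in the Gna13 counts was not tested.

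Rgs18, the gene of the GTPase-activating protein, was high in HSC and MkP. MkP held 494, 466, 456 and 532 CPM in control and 452, 573, 470.2 and 492 CPM in depleted mice. HSC held 275, 265, 240.0 and 299 CPM in control and 293, 343, 231 and 202 CPM in depleted mice, below every MkP value. CFU held 11.1 to 23.5 CPM. Rgs18 was 1.83-fold higher in MkP than in HSC (log2 fold change 0.87, SE 0.13, adjusted p = 1.65e-05) and lower in CFU than in HSC (log2 fold change -3.93, SE 0.15, adjusted p = 3.2e-16).

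Counted together, 4 of the 7 genes were called higher and 0 lower in MkP than in HSC, while 16.8% of the 20852 genes tested were called higher and 13.1% lower. In CFU against HSC 1 was called higher and 5 lower, against 27.7% and 35.8% of all genes tested. In CFU against MkP 0 were called higher and 6 lower, against 22.3% and 31.1%. The 6 were all but Gna13, with log2 fold changes of -1.43 for P2ry1, -2.14 for Gnaq, -4.44 for F2r, -4.81 for Rgs18, -8.79 for F2rl2 and -9.11 for P2ry12, the last depending on the prior count. The median log2 fold change of the 7 genes was 0.87, -2.76 and -4.44 in these 3 comparisons, against 0.01, -0.27 and -0.25 over all genes tested. The 3 comparisons share samples. P2ry12, among the genes called lower in CFU, passed the low-count filter through HSC and MkP only.

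Levels of different genes were set side by side only per kilobase of annotated exon. In MkP, Rgs18 stood at 242 ± 20.6, F2r at 183 ± 26.5, F2rl2 at 67.2 ± 6.96, P2ry1 at 14.5 ± 3.15, Gna13 at 11.55 ± 2.19, Gnaq at 8.77 ± 1.72 and P2ry12 at 0.45 ± 0.31 CPM per kilobase (SD, n = 8 mice). In HSC the order began with Rgs18 at 132 ± 21.8 and F2r at 56.8 ± 9.28 CPM per kilobase, and F2rl2 stood at 4.97 ± 3.66. In CFU the highest were Gna13 at 9.59 ± 1.66, Rgs18 at 8.67 ± 2.21 and F2r at 8.48 ± 2.22 CPM per kilobase, which do not differ beyond their spread. The PAR4 gene F2rl3 stood at 46.9 ± 9.06 CPM per kilobase in HSC, 28.7 ± 4.75 in MkP and 0.57 ± 0.70 in CFU.

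**Figure D2:**
Percent of cells with at least 1 count of each gene after every cell was thinned to 20000 counts, by population and treatment; a point is a mouse and a line the mean of 4 mice. F2r and Rgs18 were found in most MkP cells of every mouse and P2ry12 in at most 2.45% of the cells of any mouse.

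To compare cells at equal depth, every cell was thinned at random to 20000 counts. At that depth F2r had a count in 88.5% to 95.2% of MkP cells and 53.2% to 69.1% of HSC across the 8 mice. Rgs18 had a count in 91.6% to 95.95% of MkP cells, 79.8% to 91.4% of HSC and 11.8% to 27.6% of CFU. F2rl2 had a count in 45.2% to 54.8% of MkP cells, 2.47% to 9.88% of HSC and 0% to 2.70% of CFU, the population with its lowest level. P2ry1 had a count in 33.1% to 51.6% of MkP cells, up to 30.1% of CFU and 4.30% to 11.4% of HSC. So F2r and Rgs18 were found in most MkP cells, and F2rl2 and P2ry1 in a part of them. Gna13 had a count in 35.8% to 51.3% of MkP cells, 34.5% to 61.1% of CFU and 20.7% to 41.98% of HSC, and as its mean CPM was higher in MkP than in CFU no order is read from these shares.

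Without thinning, at median depths of 1654624 counts in MkP, 1351623 in HSC and 2369104 in CFU, F2rl2 had a count in 67.7% of MkP cells, 24.7% of HSC and 23.3% of CFU. The tenth of HSC with the most F2rl2 counts held 99.2% of its counts, against 49.4% in MkP. For Rgs18 that share was 33.02% in HSC and 30.1% in MkP.

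The 3 receptor genes F2r, F2rl2 and P2ry1 were found together in part of the MkP cells. With cells thinned to 100000 counts, 33.8% ± 3.4 of MkP cells had a count of all 3, 38.5% ± 3.0 of 2, 25.3% ± 4.0 of 1 and 2.4% ± 1.4 of none (SD, n = 8 mice). In HSC, 2.3% ± 1.3 had all 3 and 60.1% ± 8.7 had 1. Across the 1319 MkP cells of this depth, the rank correlation of F2rl2 with Rgs18 within a mouse had a median of 0.41 over 8 mice (range 0.27 to 0.49). With Pf4, the platelet factor 4 gene of the megakaryocyte lineage, the median was 0.56 for F2rl2, 0.53 for Rgs18, 0.24 for P2ry1, 0.19 for F2r, 0.07 for Gna13 and 0.05 for Gnaq. With the erythroid gene Klf1 it was -0.24 for F2rl2, -0.23 for Rgs18 and -0.07 for P2ry1. For F2r it was 0.01, for Gna13 0.01 and for Gnaq 0.06. Cells of 1 mouse share plates and sequencing, and these values are descriptions.

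Each mouse gave MkP cells on 2 plates. The higher plate exceeded the lower 1.05-fold in the median mouse for Rgs18, 1.17-fold for F2r, 1.18-fold for F2rl2 and 1.19-fold for P2ry1. It did so 1.22-fold for Gnaq and 1.15-fold for Gna13. For P2ry12, with few positive cells, the median ratio was 14.04 and the largest 407. The largest ratio for F2rl2 was 2.06, in depleted mouse 4, and that for Gnaq 1.96.

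MkP cells of each mouse were split by whether a Pf4 count remained at 20000 counts. F2r, F2rl2, P2ry1 and Rgs18 were higher in the 997 cells with a count than in the 327 without, while Gnaq and Gna13 did not pass the test and P2ry12 was too low to be tested. For F2rl2 the cells with Pf4 held 133, 216, 208 and 197 CPM in control mice and 227, 251, 213 and 242 CPM in depleted mice. Cells without Pf4 held 32.5 to 102.6 CPM, so the classes did not overlap. Rgs18 averaged 579 ± 66.9 CPM with and 291 ± 66.1 CPM without Pf4 (SD, n = 8 mice). F2r averaged 718 ± 113 and 546 ± 187 CPM, and P2ry1 73.1 ± 21.8 and 43.4 ± 24.5 CPM.

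The log2 fold changes were 1.97 for F2rl2 (SE 0.17, adjusted p = 2.56e-08), 0.997 for Rgs18 (SE 0.10, adjusted p = 8.5e-08), 0.79 for P2ry1 (SE 0.21, adjusted p = 0.0162) and 0.43 for F2r (SE 0.10, adjusted p = 0.00477). F2rl2, Rgs18 and F2r were higher in 8 of 8 mice and P2ry1 in 7 of 8. The 4 called genes are of 6 tested, against 4.37% of 9573 genes called higher. In the same split 5 of 5 tested erythroid marker genes and 3 of 4 macrophage genes were called lower with Pf4, and Klf1 averaged 41.7 CPM with and 169 CPM without it; all 7 megakaryocyte genes beside Pf4 itself were called higher, and their part in the result was not tested. With cells thinned to 100000 counts F2rl2 (2.41, adjusted p = 0.0241) and Rgs18 (1.11, adjusted p = 0.00501) were called, and F2r (0.46, adjusted p = 0.317) and P2ry1 (0.36, adjusted p = 0.702) were not. Without depleted mouse 2, P2ry1 was not called (0.70, adjusted p = 0.0633).

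**Figure D3:**
CPM, without TMM correction, in the summed MkP cells without and with a Pf4 count, each cell thinned to 20000 counts. A line joins the values of 1 mouse. The lines of F2rl2 and Rgs18 rise in all 8 mice, and those of Gnaq and Gna13 go both ways.

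HSC were split in the same way by Vwf, the von Willebrand factor gene that marks platelet-biased stem cells. F2r held 231, 238, 194 and 295 CPM in Vwf-positive cells of control mice against 147, 137, 170.0 and 149 CPM in the other cells. In depleted mice it held 314, 239.7, 338 and 162 CPM against 241, 195, 215 and 146 CPM. F2r was higher with Vwf in 8 of 8 mice (log2 fold change 0.52, SE 0.11, adjusted p = 0.0156), and of the 4 genes tested it was the 1 called, against 0.602% of 8976 genes called higher. Of 6 tested megakaryocyte marker genes beside Vwf itself 3 were called higher in the same split, and their part in the F2r difference was not tested. The call was lost without control mouse 1 (adjusted p = 0.0523), control mouse 2 (0.0544), control mouse 4 (0.0626) or depleted mouse 3 (0.058), and at 100000 counts per cell (0.44, adjusted p = 0.233). Rgs18 was at 322 ± 81.2 CPM with and 293 ± 34.7 CPM without Vwf (log2 fold change 0.11, SE 0.11, adjusted p = 0.854). Gnaq and Gna13 did not pass the test, and F2rl2, P2ry1 and P2ry12 were too low to be tested. P2ry1 averaged 19.2 ± 12.1 CPM with and 6.50 ± 3.25 CPM without Vwf (SD, n = 8 mice) and was higher with Vwf in 8 of 8 mice.

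Depleted and control mice were compared within each population. None of the 7 genes passed the test in HSC, CFU or MkP, by edgeR or by DESeq2. Among all genes, edgeR called 0% of 17146 in HSC, 0% of 15661 in CFU and 0.0108% of 18512 in MkP. DESeq2 called 267, 472 and 955 genes there, and 1467, 1857 and 2532 had an unadjusted p under 0.05 by edgeR. Of the 7 genes, 0 of 7 tested in HSC, 1 of 6 in CFU and 2 of 7 in MkP had an unadjusted p under 0.05.

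**Figure D4:**
Log2 fold change of each gene in platelet-depleted against control mice within HSC, CFU and MkP; points are edgeR estimates from 4 against 4 mice and bars are standard errors. The estimate farthest from 0 is that of F2rl2 in CFU at -2.16, and no gene passed the adjusted threshold.

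In MkP, F2r averaged 672 ± 14.4 CPM in depleted and 549 ± 88.6 CPM in control mice (SD, n = 4), and control mouse 4 lay within the depleted range. Its log2 fold change was 0.31 (SE 0.10, adjusted p = 0.243). P2ry1 averaged 70.5 ± 12.2 CPM in depleted and 53.8 ± 9.57 CPM in control mice, with overlapping values (log2 fold change 0.40, SE 0.16, adjusted p = 0.312). Rgs18 averaged 497 ± 53.2 and 487 ± 34.3 CPM (0.04, SE 0.09, adjusted p = 0.876). The mast cell and basophil markers reached 865 CPM in 1 depleted MkP sum, against at most 111 CPM in control MkP. F2rl2 averaged 173 ± 11.7 and 163 ± 22.4 CPM (0.10, SE 0.11, adjusted p = 0.727).

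In HSC the log2 fold changes were 0.10 for F2r (SE 0.16), 0.66 for F2rl2 (SE 0.73), -0.49 for P2ry1 (SE 0.35), -0.07 for Gnaq (SE 0.23) and -0.03 for Rgs18 (SE 0.16). The lowest adjusted p of the 7 genes in HSC was 0.734. In depleted HSC the summed level of the macrophage markers was 4.16 to 13.6 CPM, against 22.8 to 101 CPM in control HSC, and its part in these values was not tested. F2rl2 moved to 1.80, adjusted p = 0.652, without control mouse 4 and to -0.26, adjusted p = 0.925, with thinned cells.

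In CFU, F2rl2 stood at 0.66, 0.65, 0.30 and 1.01 CPM in control and at 0.18, 0.071, 0.20 and 0.15 CPM in depleted mice (log2 fold change -2.16, SE 0.62, adjusted p = 0.285). All depleted values were below all control values. F2rl2 is the 1 gene of the 7 whose CPM did not overlap between treatments in CFU, where 9.96% of genes did not overlap. In HSC and MkP the number was 0 of 7, against 8.09% and 9.32% of genes. The summed megakaryocyte markers in CFU were 25.6 to 45.5 CPM in control and 22.4 to 24.5 CPM in depleted mice, and the neutrophil markers reached 3966 CPM in 1 control CFU sum; the part of both in the F2rl2 values was not tested. F2r in CFU was at 24.1 ± 6.56 CPM in control and 32.4 ± 6.23 CPM in depleted mice (0.36, SE 0.21, adjusted p = 0.539).

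In the shares of cells thinned to 20000 counts, P2ry12 in HSC did not overlap between treatments, at 1.15% to 1.27% in control and 0% to 1.08% in depleted mice. Each of these shares is at most 1 cell of a mouse. The background was 5.09% of genes in HSC, 3.75% in CFU and 5.82% in MkP, and 0 of the 7 genes did so in CFU or MkP. At 100000 counts, F2r had a count in 75.6% to 82.3% of control HSC and 57.4% to 75.3% of depleted HSC, while its CPM in HSC overlapped between treatments; 9.16% of all genes did not overlap in HSC at this depth. P2ry1 had a count in 11.4% to 16.7% of control and 6.45% to 10.8% of depleted HSC. In MkP at this depth P2ry12 had a count in 2.55% to 4.91% of control and 0.578% to 2.42% of depleted cells. Gna13 had one in 59.1% to 61.1% of control and 52.5% to 58.2% of depleted MkP cells. These 2 of 7 genes in MkP stand beside 13.9% of all genes, and in CFU 0 of 7 stand beside 4.57%. Without thinning, Gnaq and Gna13 did not overlap in MkP, where 23.4% of all genes did not, nor did F2rl2 in CFU, where the background was 6.31%; in HSC it was 0 of 7 against 9.14%. Genes per cell were lower in depleted mice in each population as well, and their part in these shares was not tested.

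Interaction terms tested whether depletion had unequal effects in the 3 populations. None of the 7 genes was called by edgeR, where 0.0144% of 20852 genes were called for MkP against HSC, 0% for CFU against HSC and 0% for CFU against MkP. DESeq2 called 315, 587 and 457 genes, and 1261, 1887 and 1229 had an unadjusted p under 0.05 by edgeR. P2ry1 had a log2 difference of 0.86 in MkP against HSC (SE 0.34, adjusted p = 0.706). F2rl2 had -2.77 in CFU against HSC (SE 0.82, adjusted p = 0.301) and -2.19 in CFU against MkP (SE 0.82, adjusted p = 0.638). DESeq2 called F2rl2 in CFU against HSC (-2.82, adjusted p = 0.00841), at the low counts in CFU given above.

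The other genes of the pathway were described from 11 lists, and values in parentheses are log2 fold changes with their SE and adjusted p by edgeR. The lists hold 122 symbols beside the 7, and 119 of them stood in the matrix. Adgrg1, Grk2 and Grk3 are listed also by the older symbols Gpr56, Adrbk1 and Adrbk2, which the matrix does not hold. Of 108 tested in MkP against HSC, 23 were called higher (21.3%) and 15 lower (13.9%), near the 16.8% and 13.1% of all genes. In CFU against HSC 17 were called higher (15.7%) and 72 lower (66.7%), against 27.7% and 35.8% of all genes. In CFU against MkP 8 were called higher (7.41%) and 74 lower (68.5%), against 22.3% and 31.1%. The counts of single lists below are read against the same shares. They include those of the 7 genes that belong to a list. In CFU alone 91 of these genes passed the low-count filter, so some of the 108 entered the fit through HSC or MkP.

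**Figure D5:**
Log2 fold change of each tested gene of the 11 pathway lists in MkP against HSC (left) and CFU against HSC (right); diamonds are the 7 genes, circles the others, and filled symbols have an adjusted p under 0.05. Most thrombin receptor genes lie right of 0 in MkP, and most receptor, RGS and Gq effector genes lie left of 0 in CFU.

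The thrombin receptors were listed with the glycoprotein Ib complex, which also binds thrombin. Of 7 tested genes, 6 were higher in MkP than in HSC and 0 lower, with a median log2 fold change of 1.70. F2r and F2rl2, chosen with earlier results known, are among the 6 and enter this median. Gp5 averaged 50.8 ± 15.9 CPM in HSC and 248.7 ± 31.2 CPM in MkP (2.30, SE 0.14, adjusted p = 3.39e-11), and Gp1bb 0.77 ± 0.31 and 5.39 ± 0.81 CPM (2.80, SE 0.46, adjusted p = 5.91e-05). The exception was the PAR4 gene F2rl3, at 93.6 ± 18.1 CPM in HSC and 57.2 ± 9.47 CPM in MkP (-0.70, SE 0.54, adjusted p = 0.369). In 2 of 17 alternatives F2rl3 was called lower in MkP, in a fit of HSC and MkP alone (-0.71, adjusted p = 0.000452) and with thinned cells (-0.83, adjusted p = 0.000154). Between CFU and HSC, 0 of the 7 were higher and 6 lower in CFU, among them F2rl3 (-6.38, SE 0.68, adjusted p = 1.87e-08). F2r and F2rl2 are again among the 6.

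Of 12 nucleotide receptor and ectonucleotidase genes, P2ry1 alone was higher in MkP than in HSC, and 5 were lower, among them the receptor gene P2ry10 (-4.42, SE 1.54, adjusted p = 0.0405) and Entpd1, whose product degrades ATP and ADP (-2.66, SE 0.83, adjusted p = 0.0178). Of the same 12, P2ry1 was again the 1 gene higher in CFU than in HSC and 9 were lower, among them P2rx1, an ATP-gated channel gene of platelets (-8.05, SE 0.72, adjusted p = 9.16e-10). Among 9 tested genes of other platelet G protein coupled receptors 0 were higher and 4 lower in MkP, led by the prostaglandin E2 receptor gene Ptger4 (-3.90, SE 0.34, adjusted p = 1.37e-08) and the lysophosphatidic acid receptor gene Lpar6 (-2.47, SE 0.42, adjusted p = 7.03e-05). All 9 were lower in CFU than in HSC, among them the thromboxane receptor gene Tbxa2r (-6.47, SE 0.76, adjusted p = 9.3e-08).

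Of 12 tested G protein alpha subunit genes 2 were higher in MkP than in HSC and 0 lower. Gna14, a paralog of Gnaq, averaged 0.16 ± 0.25 CPM in HSC, 12.3 ± 4.31 CPM in MkP (6.39, SE 0.66, adjusted p = 1.54e-07) and 23.4 ± 7.15 CPM in CFU (7.33, SE 0.69, adjusted p = 2.26e-09). Gnas, the gene of the stimulatory alpha subunit, was also higher in MkP (0.68, SE 0.13, adjusted p = 0.000264). Gna11, another Gq family gene, averaged 37.99 ± 8.76 CPM in HSC, 34.5 ± 6.50 CPM in CFU and 35.4 ± 4.22 CPM in MkP and was not called against HSC. Among 9 beta and gamma subunit genes 3 were higher and 0 lower in MkP, led by Gnb4 (1.32, SE 0.18, adjusted p = 5.08e-06).

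Of 13 tested RGS genes, Rgs18 and Rgs10 were higher and Rgs11 lower in MkP than in HSC. Rgs10, whose product also acts on platelet G proteins, stood at 3.66 ± 2.79 CPM in HSC, 50.05 ± 8.81 CPM in MkP and 107 ± 13.7 CPM in CFU (SD, n = 8 mice). Its log2 fold change was 3.78 in MkP (SE 0.35, adjusted p = 3.27e-08) and 4.86 in CFU (SE 0.37, adjusted p = 5.21e-11). Of the 13, 2 were higher and 11 lower in CFU than in HSC, among them Rgs18 and Rgs1, which averaged 438 ± 187 CPM in HSC and 2.41 ± 2.73 CPM in CFU (-7.77, SE 0.56, adjusted p = 2.28e-11).

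Of 18 tested Gq effector genes 3 were higher and 2 lower in MkP than in HSC. Rap1b, the gene of a small GTPase that leads to integrin activation, averaged 149 ± 50.7 CPM in HSC and 636 ± 86.1 CPM in MkP (2.10, SE 0.18, adjusted p = 1.06e-08), and the protein kinase C gene Prkca was also higher (1.29, SE 0.37, adjusted p = 0.0107). Orai1, the gene of a store-operated calcium channel, was lower (-1.88, SE 0.28, adjusted p = 2.04e-05). Of the 18, 1 was higher and 16 were lower in CFU than in HSC, among them the phospholipase gene Plcb2 (-5.94, SE 0.69, adjusted p = 6.5e-08). The effectors of G12 and G13 gave 2 higher and 2 lower of 10 in MkP, with the myosin light chain gene Myl12a among the higher (0.46, SE 0.08, adjusted p = 5.54e-05). Those of Gi gave 1 higher and 0 lower of 11, the adenylyl cyclase gene Adcy6 (1.08, SE 0.23, adjusted p = 0.000814).

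For receptor desensitization, 2 of 6 genes were higher in MkP and 0 lower, the beta-arrestin gene Arrb2 (1.53, SE 0.15, adjusted p = 8.65e-08) and the receptor kinase gene Grk6 (0.66, SE 0.13, adjusted p = 0.000282). Of 8 genes listed as binding partners of RGS18, 5 were higher and 1 lower in MkP than in HSC, with Ywhah, an adaptor gene, among the former (0.72, SE 0.07, adjusted p = 6.29e-08) and the phosphatase gene Ptpn6 as the latter (-0.63, SE 0.07, adjusted p = 2.88e-07). The median log2 fold changes of the 11 lists in MkP against HSC lay between -0.56 for the other receptors and 1.70 for the thrombin receptors, against 0.01 over all genes tested.

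The genes whose levels followed each of the 7 most closely over the 24 sums were ranked by Pearson's r of log2 CPM among 10260 genes, as a description. For F2r they were Elf1 (0.984), Hp1bp3 (0.982) and Syk (0.974), and for F2rl2 they were Pf4 (0.968), Pde10a (0.962) and Itga2b (0.959). P2ry1 was closest to Slc14a1 (0.948), Ufsp1 (0.944) and Ache (0.925), which also stood in the order MkP, CFU, HSC. Rgs18 was closest to Dapp1 (0.991), Cdkn2d (0.989) and Tmem40 (0.988), and P2ry12 to Vwf (0.936), Lhfp (0.930) and Macf1 (0.930). Gnaq was closest to Dpysl2 (0.964), Gm38381 (0.964) and Med12l (0.961), and Gna13 to Stag2 (0.828), Atp8a1 (0.798) and Rragc (0.770). Among the 7 genes themselves the highest r was 0.97 for F2r with Rgs18, and the lowest -0.04 for Gnaq with Gna13. The sums come from 3 populations of the same mice, which these values share.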

How the data were processed

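Smart-seq2 libraries of single sorted bone marrow cells were analysed from a deposited matrix of raw counts per gene symbol and well. Per the submitters' processing notes, Trim Galore 0.5, STAR 2.6.0 and HTSeq 0.6.1 were used; the sources used here do not give the genome build, annotation or strand rule. Of 3070 columns, 1 matched no sample and was not used, and rows of the 107 repeated symbols were added. From the deposited table of wells only the population names were read.

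Wells with at least 20000 counts, 1000 genes and at most 20% mitochondrial counts were kept. Cells were sorted singly per the labels' protocols, and no doublet caller was run. Counts were summed per mouse and population and tested with edgeR 4.0.16 (R 4.3.3; quasi-likelihood test, TMM, default filter, Benjamini-Hochberg over all genes, called at 0.05). Populations were compared in all 24 sums with treatment as a covariate, treatments within each population, interactions over 6 groups, and split cells with the mouse as a block. The population and interaction fits reported here did not model that the populations of a mouse are paired. A standard error is the log2 fold change divided by the square root of F. DESeq2 1.42.0, other cell and count filters, thinning, leaving out each mouse, and a mouse block were alternatives. The same animals gave all populations, going by the title codes; deviations of same-mouse sums correlated at 0.027 to 0.178, against -0.151 to 0.0731 for different mice. Exon lengths are from GENCODE M21 and promoters from RefSeq, which matched 6 of the 7 genes. Intervals take amplified reads as independent, and intervals and floors do not cover the spread over cells or mice.

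On simulated sums of 20852 genes made for MkP against HSC, 36% of genes changed 2-fold and 60% of those changed 4-fold were recovered. For depleted against control in MkP, with 18512 genes, 36% and 56% were, and for the interaction of MkP against HSC 12% and 34%. In each simulation 100 genes were changed 2-fold and 100 were changed 4-fold, drawn from all genes passing the filter. Unchanged genes made up 5.88%, 8% and 9.80% of the calls in these 3 simulations. In the data 6242 genes were called for MkP against HSC, so the simulated shares do not give the recovery in that comparison. They are shares over genes of all levels and do not give the recovery of the 7 genes in any comparison. The 7 genes and all lists were chosen with earlier results of these data known. Named list genes are, for each list and comparison, at most the 3 called genes with the largest change among those averaging at least 1 CPM. Genes outside this rule were named after their values were seen: F2rl3 in MkP, Gna11, Iqgap2, Med12l, Gm37035 and Gm11696. Similar genes are the 3 with the highest r for each gene among genes of at least 5 CPM.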

Additional observations from a re-analysis of the deposited data

Results flagged for a closer look

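In 2 cases 1 control HSC sample stood far from the other 3 of its group, and both were control mouse 4. F2rl2 was at 25.5 CPM there against 2.40 to 5.83 CPM in the other control mice, and Gnaq at 69.3 CPM against 41.5 to 44.8 CPM. P2ry12 in CFU is listed because 1 count was found in a single mouse of each treatment, at 0.00558 CPM in control mouse 4 and 0.00556 CPM in depleted mouse 1, with 0 in the others. Chance alone marks about 1 in 20 groups, and 42 groups of 4 mice were examined.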

How the results depend on the processing

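Of 1105 log2 fold changes of single genes under alternatives, 1090 kept their direction where called and their side of the threshold, 9 lost a call and 6 gained one; none that was called reversed. No count of genes called among the 7 moved by more than 1.5 times in the population comparisons or in depleted against control mice. DESeq2 called 1 gene, F2rl2, for the treatment effect in CFU against HSC, where edgeR called 0. In HSC split by Vwf, the 1 call became 0 with no replicate block and with cells thinned to 100000 counts, and ranged from 0 to 1 when a mouse was left out. In MkP split by Pf4, 4 calls became 2 at 100000 counts. That depth also changes the classes, and the cause was not tested. Leaving out a mouse gave 3 to 4 calls there. The replicate block, as an alternative or when left out of the splits, changed no other call among the 7 genes than those of Gna13 in MkP against HSC and of F2r in the Vwf split. Shares not overlapping between treatments, over 7 genes and 3 populations, numbered 1 at 20000 counts, 4 at 100000 and 3 without thinning. Of all genes, 5.82%, 13.9% and 23.4% did not overlap in MkP, 5.09%, 9.16% and 9.14% in HSC, and 3.75%, 4.57% and 6.31% in CFU. The numbers for the 7 genes pool the populations and are not read against the share of 1 population. The cause of the change with depth was not tested. Counts were few for P2ry12 in CFU, at 2 in all, and for F2rl2 in CFU, at 12 to 181 per mouse, which limits their precision. With the low-count filter at a mean of 8 CPM the median log2 fold change of all genes in CFU against HSC was -0.05, with DESeq2 -0.38. Over all genes, more were called between treatments by DESeq2, and by edgeR at a mean of 8 CPM or with thinned cells, than in the fits reported: in MkP 955 with DESeq2, 147 at a mean of 8 CPM and 96 with thinned cells, against 2; in HSC 267, 6 and 38, and in CFU 472, 37 and 32, against 0 in each. With all groups in 1 fit the numbers were 47 in HSC, 51 in CFU and 1 in MkP. In CFU against HSC 7692 genes were called at a mean of 8 CPM and 8788 with thinned cells against 13245, in CFU against MkP 6986 against 11128, and in HSC split by Vwf 24 at 100000 counts and 60 with no replicate block against 97. In MkP split by Pf4, 160 genes were called higher and 58 lower at 100000 counts, where the median over all genes was 0.19, against 418 and 443 at 20000, where it was 0.01.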

Other observations

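Other genes of the pathway also differed within MkP. In MkP cells with against without a Pf4 count, 21 of 78 tested pathway genes beside the 7 were called higher and 12 lower, where 418 and 443 of all 9573 genes were. Higher were Tbxa2r, the thromboxane receptor gene (2.33, SE 0.23, adjusted p = 1.26e-07), Rap1b (2.14, SE 0.12, adjusted p = 1.32e-11) and Gnaz, the gene of a Gi family alpha subunit (2.18, SE 0.43, adjusted p = 0.00126). Lower were Gna14 (-1.77, SE 0.33, adjusted p = 0.000697) and the receptor kinase gene Grk3 (-0.88, SE 0.16, adjusted p = 0.000552). In HSC with against without a Vwf count, 4 of 80 were called higher and 1 lower, where 54 and 43 of all 8976 genes were. They were Tbxa2r (1.41, SE 0.24, adjusted p = 0.00223), Gp9 (0.91, SE 0.19, adjusted p = 0.0104), Rap1b (0.71, SE 0.15, adjusted p = 0.0107) and Lpar6 (0.70, SE 0.14, adjusted p = 0.00827), and Rgs1 was lower (-0.62, SE 0.14, adjusted p = 0.0199).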
